A study of Mus musculus with 16 samples.

Results

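The sites described here are the 771 wide Foxa1 binding sites, found in mouse embryonic fibroblasts 30 days after infection with Foxa1, at which no other binding list of the series has a peak. They were chosen by 2 measured values, namely a peak width of 150 bp or more and no overlap, even of 1 bp, with any peak of the 7 other lists. They make up 23.1% (exact 95% interval 21.7 to 24.6%) of the 3331 peaks of the Foxa1 day 30 list, and the 8 lists hold 4839 peaks in all. Because width and overlap chose them, neither is a finding, and both are given below as descriptions only.

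Each sample was a culture of C57BL/6 mouse embryonic fibroblasts (connective tissue cells grown from embryos at 13.5 days post coitum) infected with 1 factor, Foxa1, Foxa2, Foxa3 or Hnf4alpha, and taken on day 2 or day 30. Chromatin was sheared and precipitated with an antibody to the infected factor, and the recovered DNA was sequenced (ChIP-seq). There were 8 ChIP samples, 1 for each factor and day, and 8 input samples without antibody, of which the inputs were not analysed here. The labels name no promoter or vector for the introduced factors, no fraction of infected cells, and no separate control culture without a factor. No value carries an error between samples, read depth is unknown, and a site absent from a list is not thereby shown to be unbound.

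Foxa1, Foxa2 and Foxa3 are forkhead proteins of the endoderm and its organs, the liver among them. They are known as pioneer factors, because their DNA-binding domain can engage sites on DNA that is still wrapped in nucleosomes, after which other regulators can follow. Hnf4alpha is a nuclear receptor of hepatocytes, and it is used together with a Foxa protein to turn fibroblasts into hepatocyte-like cells.

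The Foxa1 day 30 list falls into 4 classes by the 2 criteria. Of its 1082 peaks of 150 bp or more, 771 (71.3%, 68.5 to 73.9%) overlapped no other list and are called wide sites here, and 311 did overlap one. Of its 2249 narrower peaks, 2057 (91.5%, 90.2 to 92.6%) overlapped no other list and are called narrow sites here, and 192 did overlap one. The wide peaks set aside for overlap were mostly those of the Foxa lists, with 190 overlapping Foxa1 day 2, 141 Foxa3 day 30 and 93 Foxa2 day 30. Only 12 overlapped Foxa2 day 2, 4 Foxa3 day 2, 1 Hnf4a day 30 and 0 Hnf4a day 2, so the last 4 lists removed few candidates. A wide peak has more room to overlap another list than a narrow one.

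Most wide sites were little wider than the minimum. Their median width was 191 bp (quartiles 165.5 and 237 bp), and 430 of them (55.8%) measured 150 to 199 bp. A further 251 measured 200 to 299 bp, 64 measured 300 to 399 bp, and 26 measured 400 bp or more. Together they covered 167.2 kb of sequence, against 210.3 kb for the more numerous narrow sites and 96.99 kb for the 311 wide peaks with another list. Nothing marks a natural boundary at the threshold: 9 peaks without another list measured 150 bp and 10 measured 149 bp. The highest-scoring peaks just inside lay on chromosome 8 (46613322 to 46613471, score 21.5) and chromosome 11 (111857553 to 111857702, score 18.8), and those just outside on chromosome 11 (3306162 to 3306310, score 18.9) and chromosome 3 (132874477 to 132874625, score 16.5). The third on each side was on chromosome 18, with scores of 15.2 and 11.4. Start and end positions are 1-based on the mouse build mm9, and no site was tied to a gene, since no annotation of that build was used here.

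**Figure D1:**
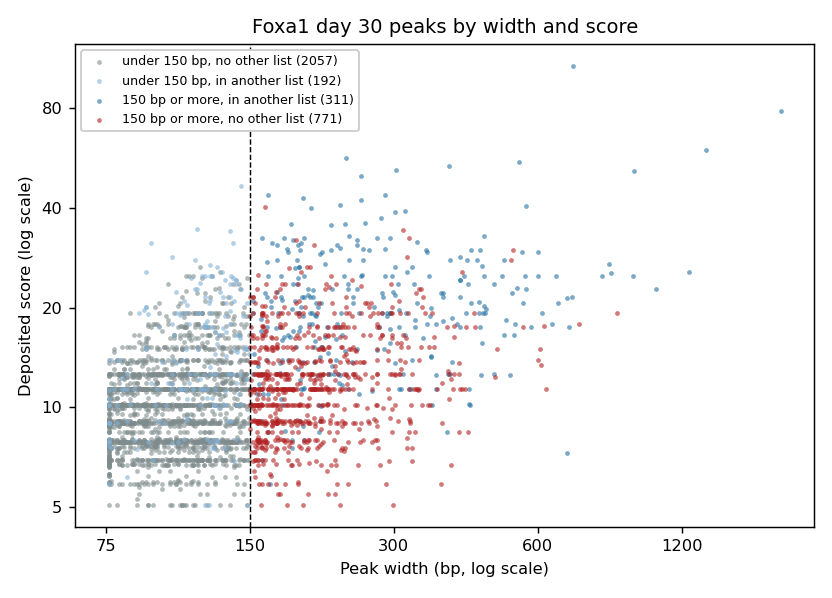
Width (bp, log scale) against the authors' score (log scale) for the 3331 Foxa1 day 30 peaks, 1 point per peak, coloured by the 4 classes. The dashed line marks 150 bp, and the 771 wide sites to its right reach a score of 40.1, against 107.1 for wide peaks with another list.

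The deposited score of a peak, read as −log10 of a p-value, is the authors' own and ranks peaks within the list. Wide sites had a median score of 11.4 (quartiles 9.08 and 15.0, range 5.08 to 40.1). The median was 9.95 for narrow sites, 12.6 for narrow peaks with another list and 19.2 for wide peaks with another list. Wide sites thus lay above narrow sites and below both classes with another list. That is a description, since width and score come from the same signal. Over the 771 wide sites, width and score went together only weakly (Spearman rho 0.19). The median score was 11.2 at 150 to 199 bp, 12.4 at 200 to 299 bp, 12.6 at 300 to 399 bp and 15.0 at 400 bp or more. Scores repeat exactly, with 180 distinct values among the 771 sites and 51 sites at the commonest value of 12.6, so they give the rank of a site in coarse steps. A score under 10 was given to 246 sites (31.9%), and a score of 20 or more to 55 (7.13%).

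The 5 highest-scoring wide sites lay on 5 chromosomes and were of unlike width. The first, on chromosome 7 (108471897 to 108472057), had a score of 40.1 over only 161 bp, and a narrow site lay 6.60 kb from it. The second, on chromosome 13 (9013782 to 9014095), scored 34.3 over 314 bp, with another wide site 28.3 kb away. The third was on chromosome 17 (63644287 to 63644609, 323 bp, score 32.5), and its nearest Foxa1 day 30 peak was a narrow site at 9.46 kb. The fourth was on chromosome 4 (97670832 to 97671018, 187 bp, score 32.0), and the fifth on chromosome 14 (65962766 to 65962969, 204 bp, score 31.0). All 5 were far from other lists. The fourth came nearest, at 225.1 kb from a Hnf4a day 30 peak, and the third was the most remote, at 2645 kb from a Foxa1 day 2 peak.

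The 5 widest sites were other ones, and none of them scored above 20. A site of 877 bp on chromosome 2 (108356650 to 108357526) scored 19.2 and had another wide site 0.646 kb from its centre. A site of 731 bp on chromosome 12 (15327521 to 15328251) scored 17.9 and stood alone, 332.7 kb from the next Foxa1 day 30 peak. The next 3 were on chromosome 8 (42100651 to 42101273, 623 bp, score 11.3), chromosome 9 (61688598 to 61689214, 617 bp, score 17.6) and chromosome 4 (71500445 to 71501054, 610 bp, score 13.4). The site on chromosome 9 had another wide site at 0.540 kb and a Foxa3 day 30 peak at 32.3 kb. These 5 sites were thus of 2 kinds, those with a second peak within 1 kb and those without a Foxa1 day 30 peak for over 30 kb.

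Wide sites occurred on all 20 chromosomes with peaks, at 0.311 per Mb over the 19 autosomes. By density, chromosome 3 was highest with 70 sites (0.439 per Mb), followed by chromosome 10 with 51 sites (0.397 per Mb) and chromosome 13 with 46 (0.383 per Mb). The lowest autosomal density was on chromosome 11, with 28 sites (0.230 per Mb), then chromosome 5 with 36 (0.237 per Mb) and chromosome 7 with 37 (0.243 per Mb). Narrow sites ranged from 0.707 per Mb on chromosome 12 to 1.01 on chromosome 10. The orders of the 2 classes had little in common over the 19 autosomes (Pearson r 0.14, Spearman rho 0.03, both classes from 1 library). Chromosome 12, with the fewest narrow sites per Mb, had 45 wide sites, which were 30.4% of its Foxa1 day 30 peaks. Chromosome 11, with 119 narrow sites and the second highest narrow density, had the lowest such share, 15.1%. The median share over the autosomes was 22.8%. Chromosome lengths here are the largest peak end over the 8 lists.

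**Figure D2:**
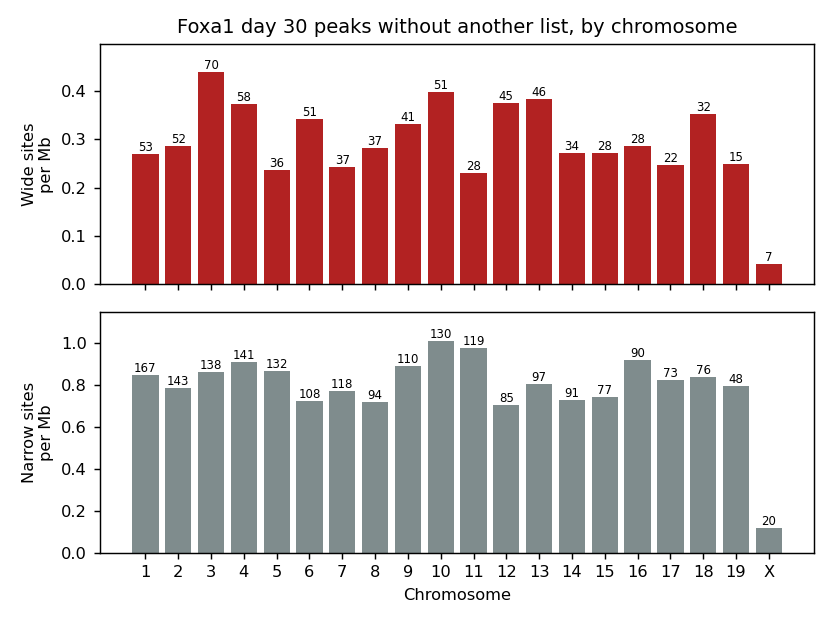
Wide sites (upper bars) and narrow sites (lower bars) per Mb on each chromosome, with the number of sites above each bar. Wide sites were densest on chromosome 3 at 0.439 per Mb and sparsest on X at 0.0420 per Mb, where narrow sites were sparse too.

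Chromosome X carried 7 wide sites, 0.0420 per Mb, and the autosomes were 7.40 times as dense. X makes up 6.35% of the length, but it held 0.908% (0.366 to 1.86%) of the wide sites, 20 of 2057 narrow sites (0.972%, 0.595 to 1.50%) and 0.871% of all Foxa1 day 30 peaks. The shares of wide and narrow sites did not differ past the threshold (two-sided Fisher's exact test, adjusted p = 1 over 3 tests), and the sign of the small difference changed with the settings tried. X was thus sparse in the whole list, and not in the wide sites alone. The sex of the embryos is not given in the labels. The highest-scoring X site lay at 109808532 to 109808690 (159 bp, score 19.2), and the remaining 6 scored 6.74 to 12.6. Only 1 of the 7, at 155009278 to 155009447, had a peak of another list within 1000 kb, a Foxa3 day 30 peak at 147.8 kb.

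Each chromosome was also cut into 5 stretches of equal length. The stretch at the centromere end held 112 wide sites (14.5%, 12.1 to 17.2%), and the last held 184 (23.9%, 20.9 to 27.0%). The stretches between them held 146, 179 and 150. Narrow sites were also fewest in the first stretch, at 15.2% (13.6 to 16.8%), and 20.6 to 21.6% of them lay in each of the other four.

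The spacing of wide sites covered more than 5 orders of magnitude, from 248 bp to 34.0 Mb between centres. The median of the 751 distances between neighbours was 1542 kb (95% interval 1315 to 1840 kb), with quartiles of 264.9 and 4132 kb and a mean of 3114 kb. The limits of 1 and 5 kb used next are cuts in a run of distances without a break there. In 40 cases (5.33%) neighbouring wide sites lay within 1 kb of each other, only 11 more cases were added up to 5 kb, and most of the rest were over 100 kb apart. Narrow sites, being more numerous, had a median distance of 569.8 kb (507.7 to 629.9 kb), so the medians of the 2 classes are not comparable.

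**Figure D3:**
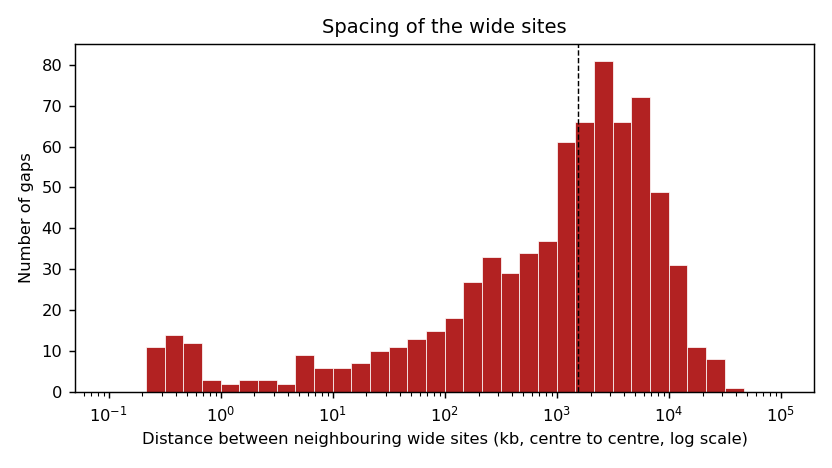
Number of distances between neighbouring wide sites on the same chromosome, by size (kb between centres, log scale, 751 distances). The dashed line is the median of 1542 kb, and 40 of the distances lie below 1 kb, a limit at which the distances show no break.

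The longest stretches without a wide site were on X, 34.0 Mb (75779854 to 109808532) and 31.3 Mb (35917864 to 67207368), each with 4 narrow sites inside. On the autosomes the longest were 25.6 Mb on chromosome 7 (30785905 to 56417538), 25.4 Mb on chromosome 4 (107290454 to 132686129) and 25.2 Mb on chromosome 8 (64048318 to 89283021). These 3 stretches were not empty of Foxa1: they held 14, 17 and 22 other Foxa1 day 30 peaks, of which 13, 15 and 19 were narrow sites. In windows of 1 Mb, 550 of 2633 (20.9%) held a wide site, 407 of them exactly 1, 92 held 2 and 51 held 3 or more. Of the windows with a wide site, 68.7% also held a narrow site, against 43.5% of all windows. A Foxa1 day 30 peak with another list was present in 30.7% of the windows with a wide site, in 25.3% of those with a narrow site and in 15.3% of all. The window counts of wide and narrow sites had a Spearman rho of 0.31 over 2633 windows, most of them empty of wide sites and all from 1 library.

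A Foxa1 day 30 peak of any kind lay within 20 kb of 294 wide sites (38.1%, 34.7 to 41.7%), against 33.6% of all Foxa1 day 30 peaks. Among peaks with another list it was 43.1% (37.5 to 48.8%) of the 311 wide ones and 33.3% of the 192 narrow ones. Having a close neighbour was thus not particular to wide sites. Of narrow sites, 626 of 2057 (30.4%, 28.4 to 32.5%) had one. The difference of 7.70 percentage points between wide and narrow sites passed the threshold (two-sided Fisher's exact test on peaks, adjusted p = 0.000377). The test compares 2 classes of peaks from 1 library, and neighbouring sites count each other, so the p-value is too small. The difference lay in neighbours closer than 1 kb, which 186 wide sites (24.1%, 21.1 to 27.3%) and 342 narrow sites (16.6%, 15.0 to 18.3%) had. Of peaks with another list, 28.3% of the wide and 22.4% of the narrow ones had a neighbour that close. A nearest peak over 1 kb and up to 20 kb away was found for 14.0% of wide and 13.8% of narrow sites (adjusted exact p = 1, chosen after the data were seen). Sites with a nearest peak within 1 kb counted there as without one, and a larger share of wide sites were such. The call was also lost among peaks with a score of at least 10.2, where the shares were 21.1% and 18.0% (adjusted exact p = 0.521). With peaks within 500 bp merged they were 22.2% and 18.0% (0.0464). Merged peaks were sorted anew by their merged width, so the 762 wide sites of that setting are a different set.

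**Figure D4:**
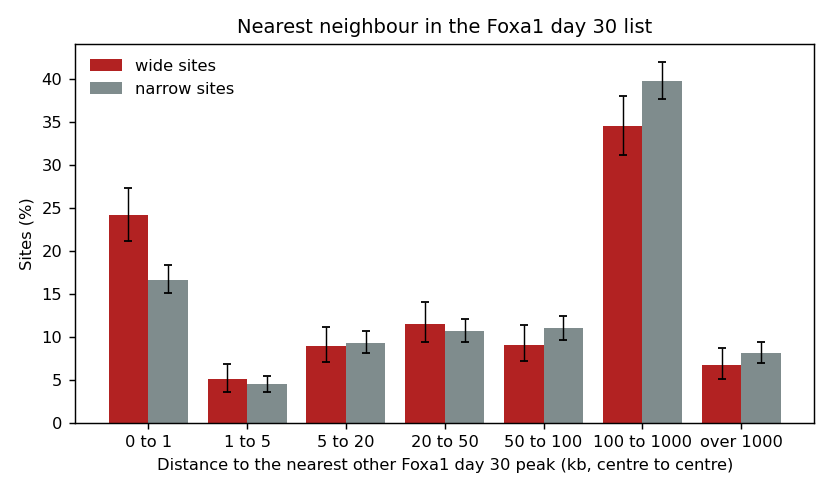
Share of wide and narrow sites (%) by distance from the nearest other Foxa1 day 30 peak (kb between centres), with exact 95% binomial intervals that cover counting error only. The classes stand apart in the band up to 1 kb, with 24.1% of wide and 16.6% of narrow sites.

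Close neighbours of wide sites were of all 4 classes. Within 500 bp, edge to edge, 173 wide sites (22.4%, 19.5 to 25.6%) had another Foxa1 day 30 peak. Of narrow sites, 312 (15.2%, 13.6 to 16.8%) had one. Of the 771 wide sites, 98 had a narrow site within 500 bp and 72 another wide site. Of the same 771, 19 had a wide and 8 a narrow peak with another list there (a site can have several). Where the nearest Foxa1 day 30 peak of a wide site lay within 20 kb, it was a narrow site in 152 cases and a wide site in 103. It was a wide peak with another list in 26 and a narrow one in 13. In the whole list, narrow sites made up 61.8% and wide sites 23.1%. Wide and narrow peaks with another list made up 9.34% and 5.76%. The neighbour was thus without another list in 255 of 294 cases (86.7%, 82.3 to 90.4%), near the 84.9% of the whole list that overlap no other. For narrow sites with a neighbour in that range it was 493 of 626 (78.8%, 75.3 to 81.9%). These shares were not tested, and neighbouring sites count each other. A peak with another list stood within 20 kb of 63 wide sites (8.17%, 6.34 to 10.3%) and of 192 narrow sites (9.33%, 8.11 to 10.7%), a difference that was not tested. At the other end, 318 wide sites (41.2%) had no Foxa1 day 30 peak within 100 kb, and 52 (6.74%) had none within 1000 kb. Such remoteness was not particular to wide sites. The nearest peak lay over 100 and up to 1000 kb away for 34.5% of wide and 39.8% of narrow sites, and 8.12% of narrow sites had none within 1000 kb. The widest sites had neighbours most often: 13 of 26 sites of 400 bp or more had a Foxa1 day 30 peak within 20 kb, against 156 of 430 (36.3%) at 150 to 199 bp. That order was not tested.

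Chaining wide sites over gaps of up to 20 kb gave 64 groups with 138 sites (17.9%, 15.3 to 20.8%). The remaining 633 had no other wide site in that range. When all Foxa1 day 30 peaks were chained, 477 wide sites (61.9%, 58.3 to 65.3%) stood alone. Shares of narrow sites in chains are not given here. Of the 64 groups of wide sites, 57 were pairs, 6 had 3 sites and 1 had 6. The group of 6 lay on chromosome 9 (61636830 to 61657139). Its first 3 sites were nearly equal in width, 249, 237 and 236 bp, at 61636830 to 61637078, 61637196 to 61637432 and 61637549 to 61637784, with scores of 10.2, 7.53 and 8.98. The fourth site and the fifth (61643844 to 61644010, score 15.2, and 61644062 to 61644288, score 6.68) had the smallest distance between any pair of wide sites, 248 bp. The sixth (61656942 to 61657139, score 7.53) followed 2 peaks that overlapped another list, one of 413 bp with a score of 24.2 (61656264 to 61656676) and one of 111 bp with a score of 9.32 (61656757 to 61656867). Both shared peaks lay within the group, and 1 Foxa3 day 30 peak lay inside its span. The surrounding 1 Mb window (61000001 to 62000000) held 9 wide sites, the most of any window, with 7 narrow sites and 5 peaks with another list.

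The 6 groups of 3 sites spanned 1.01 to 19.5 kb. The most compact, on chromosome 10 (24846673 to 24847680), held 3 sites of 202, 261 and 156 bp with scores of 11.4, 20.6 and 6.95, and no other Foxa1 day 30 peak. A group on chromosome 3 spanned 3.09 kb (57145387 to 57148478) and reached a score of 21.5, and one on chromosome 7 spanned 4.25 kb (128971780 to 128976031). Another on chromosome 10 spanned 7.92 kb (19183879 to 19191797) and one on chromosome 2 spanned 19.5 kb (117569793 to 117589333). Peaks of the 7 other lists were absent from the spans of these 5 groups. The sixth group, on chromosome 18, spanned 2.56 kb and contained 1 Foxa3 day 30 peak. After the window on chromosome 9, the fullest was on chromosome 4 (71000001 to 72000000), with 6 wide sites, 2 narrow sites and no peak with another list.

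Few peaks of the Foxa1 day 30 list lay in the dense blocks of the series. When peaks of all 8 lists were chained over gaps of up to 20 kb, 9 blocks had 10 or more peaks, and 8 wide sites (1.04%, 0.449 to 2.03%) lay in 2 of them. Of narrow sites 3 (0.146%, 0.0301 to 0.426%) lay in the blocks, and of all Foxa1 day 30 peaks 15 (0.450%), so that wide sites were 8 of those 15. The Foxa1 day 30 list was itself chained, so wide sites helped to form the blocks they are counted in. The group of 6 wide sites on chromosome 9, with 9 Foxa1 day 30 peaks and 1 Foxa3 day 30 peak, is by itself enough for a block. The difference between wide and narrow sites rests largely on that group and was not tested. Without the blocks 763 wide sites were left.

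Most wide sites were far from every other list. The nearest peak of any of the 7 lists was at a median of 589.0 kb (quartiles 118.2 and 1724 kb), against 592.4 kb for narrow sites. The extremes were 0.127 kb and 51124 kb, the latter on X, and 281 wide sites (36.4%) were over 1000 kb from every other list. Within 10 kb of another list lay 76 wide sites (9.86%, 7.85 to 12.2%) and 213 narrow sites (10.4%, 9.07 to 11.8%), against 10.2% of all Foxa1 day 30 peaks that overlap no other list. These shares are given without a test, because the rule removed peaks that overlap another list, and it removes a wide peak over a longer distance than a narrow one. The sign of the difference changed with the settings tried. By width, the wide sites within 10 kb of another list were 38 of 430 (8.84%) at 150 to 199 bp. They were 21 of 251 (8.37%) at 200 to 299 bp and 11 of 64 (17.2%) at 300 to 399 bp. Among sites of 400 bp or more they were 6 of 26 (23.1%). The differences between these bands were not tested.

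The same factor on the early day was the nearest other list most often, at 313 wide sites (40.6%). Foxa3 day 30 came next with 162 (21.0%), then Hnf4a day 30 with 157 (20.4%) and Foxa2 day 30 with 114 (14.8%). Foxa2 day 2 was nearest at 11, Hnf4a day 2 at 9 and Foxa3 day 2 at 5. The lists differ in length, from 448 peaks for Hnf4a day 30 and 442 for Foxa1 day 2 to 10 for Hnf4a day 2. These counts are not adjusted for length. The same counts for narrow sites are not given here, so the order is not shown to be particular to wide sites.

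The median distance of a wide site was 1.75 Mb (95% interval 1.57 to 2.05 Mb) to a Foxa1 day 2 peak and 2.77 Mb (2.51 to 3.19 Mb) to a Foxa3 day 30 peak, a list of 265. It was 3.94 Mb (3.57 to 4.53 Mb) to a Hnf4a day 30 peak and 4.75 Mb (4.38 to 5.51 Mb) to a Foxa2 day 30 peak, a list of 174. So Hnf4a day 30, as long a list as Foxa1 day 2, lay over 2 times as far from the wide sites at the median. Lists of like length can still differ in how their peaks clump, and the distances were not adjusted for that. Without the dense blocks the median was 1.75 Mb to Foxa1 day 2 and 4.08 Mb to Hnf4a day 30. For narrow sites the medians were 1.68, 2.84, 3.76 and 5.19 Mb in the same order of lists, and each 95% interval overlapped that of the wide sites. Both classes had the 4 lists in the same order.

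The short day 2 lists leave many chromosomes empty. Foxa2 day 2, with 23 peaks, was at a median of 24.8 Mb (21.5 to 27.5 Mb) from 581 wide sites, and 190 sites were on chromosomes without a peak of that list. Foxa3 day 2 has 146 peaks but was as far, 26.1 Mb (24.2 to 28.7 Mb), from 652 sites. Hnf4a day 2 was at 37.6 Mb (33.0 to 42.6 Mb) from 281 sites, with 490 sites on chromosomes without one. Foxa3 day 2 was the one list whose median distance exceeded its mean interval, the total length divided by its number of peaks, at 1.45 times. A ratio of 1 is no reference value here. For the other lists with peaks on all 20 chromosomes the ratio was 0.280 to 0.673, highest for Hnf4a day 30, and 0.294 for Foxa1 day 2. It was 0.217 for Foxa2 day 2 and 0.143 for Hnf4a day 2. The medians of Foxa2, Foxa3 and Hnf4a day 2 leave out sites on chromosomes without a peak, while the mean interval counts all chromosomes. Their ratios are therefore too low to set beside the rest.

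**Figure D5:**
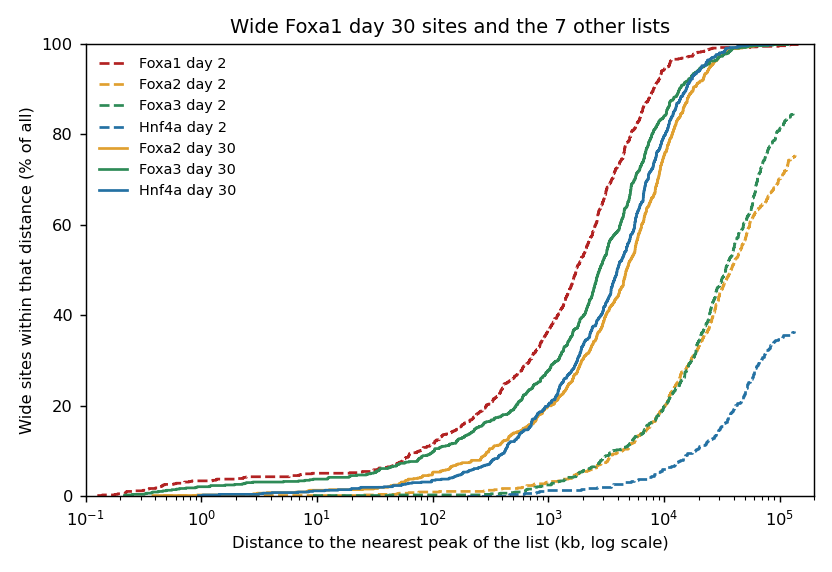
Share of the 771 wide sites (%) with a peak of each other list within a given distance (kb between centres, log scale), dashed lines for day 2 and solid lines for day 30. Lines that end below 100% belong to lists with no peak on some chromosomes, and at 1000 kb the Foxa1 day 2 line stands at 36.7% and the Foxa3 day 30 line at 27.8%.

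Few wide sites had a peak of another list at short range. Within 1 kb, 26 wide sites (3.37%) had a Foxa1 day 2 peak and 16 (2.08%) a Foxa3 day 30 peak, while 2 had a Foxa2 day 30 peak, 1 a Foxa2 day 2 peak and 1 a Hnf4a day 30 peak. For narrow sites the shares within 1 kb were 3.84% for Foxa1 day 2 and 2.63% for Foxa3 day 30. Within 10 kb the numbers were 39 for Foxa1 day 2, 29 for Foxa3 day 30, 10 for Foxa2 day 30 and 9 for Hnf4a day 30. The shares for Foxa1 day 2 and Foxa3 day 30 were then 5.06% and 3.76%, against 6.22% and 4.13% of narrow sites. The numbers were 1 each for Foxa2 day 2 and Foxa3 day 2, and 0 for Hnf4a day 2, which has 10 peaks. Of the 76 sites with any list within 10 kb, 65 had 1 such list, 9 had 2 and 2 had 3, and 70 (9.08% of the 771) had a Foxa list. In 56 of the 76 (73.7%) the near peak of another list itself overlapped a different Foxa1 day 30 peak. These wide sites thus had a shared site nearby. The like share of narrow sites is not given here, so it is not shown to be a trait of wide sites. Among narrow sites, 30 of 2057 (1.46%) had a Foxa2 day 30 peak within 1 kb, against 2 of 771 (0.259%) wide sites, a difference picked out after the values were seen and not tested.

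For each list, the site nearest to it by centres is given next, with the gap between edges. On chromosome 12 (120179291 to 120179445, 155 bp, score 10.2) a Foxa1 day 2 peak followed a wide site after a gap of 19 bp, at 120179465 to 120179524. On chromosome 6 (129130406 to 129130602, 197 bp, score 7.45) a Foxa3 day 30 peak of 185 bp (129130629 to 129130813) followed after 26 bp. On chromosome 12 (58418023 to 58418514, 492 bp, score 15.0) a Foxa2 day 30 peak of 60 bp lay 107 bp away, at 58417856 to 58417915. These 3 pairs are adjacent peaks that the rule counts as separate, and other wide sites had smaller gaps between edges, down to 4 bp for Foxa1 day 2 and 9 bp for Foxa3 day 30.

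The nearest Foxa2 day 2 peak lay 339 bp from a wide site on chromosome 11 (20980044 to 20980196, 153 bp, score 10.2). The nearest Hnf4a day 30 peak lay 802 bp from a wide site on chromosome 2 (46298874 to 46299063, 190 bp), whose score of 19.2 was well above the median. The nearest Foxa3 day 2 peak was 9.03 kb from a site on chromosome 8 (45250414 to 45250805, 392 bp, score 12.6). No wide site came closer to a Hnf4a day 2 peak than 197.0 kb, on chromosome 5 (16777887 to 16778100, 214 bp, score 15.0). With every site removed that had a peak of another list within 500 bp, 736 of the 771 wide sites were left.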

How the data were processed

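The series deposited 1 peak list per ChIP sample on build mm9, and nothing in the labels says that samples were pooled. Per the submitters' processing notes, the tools were MACS2 2.1.0, BWA 0.6.2 and bedtools 2.16.2. The role of each tool, the peak threshold and the use of the inputs are not given in the sources used here. The score of a peak, deposited without a stated unit, was taken to be −log10 of its p-value, because all scores exceed 5 and repeat exactly. Positions in the lists, counted from 0 as deposited, were turned to 1-based.

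Distances run from centre to centre unless edges are named. Shares carry exact Clopper-Pearson 95% intervals and medians order-statistic intervals, which cover counting error only. Wide and narrow sites were compared by 3 two-sided Fisher's exact tests with Benjamini-Hochberg adjustment (threshold 0.05), of which the one on nearness to other lists is not reported as a test, since the rule itself used overlap. Peaks of 1 library are not replicates. Named regions are the 5 highest-scoring and 5 widest members, the groups with the most members (ties listed) and the member nearest to each list. Members, rules and tests were chosen with earlier results of these data known. Sequence content was not analysed here, since no genome of the build was used. Python 3.11.15, NumPy 2.4.6, SciPy 1.17.1 and Matplotlib 3.10.9 were used, and the counts were checked on made-up peaks.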

Additional observations from a re-analysis of the deposited data

How the results depend on the processing

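Of 13 alternatives set with the design and 1 added after the data were seen, the number of wide sites moved most with the width minimum and the score: 1154 at the lower of the 2 width minimums tried, 341 at 200 bp and 489 at a score of at least 2 times the lowest. Their median spacing was then 1057, 3115 and 2708 kb, and the median distance to Foxa3 day 30 was 3.22 Mb at the higher score. At that score, the share with a Foxa1 day 30 peak within 20 kb no longer differed from narrow sites past the threshold. It was 21.1% there (adjusted exact p = 0.521). The same held when only a nearest peak over 1 kb away was counted (14.0%). Over the alternatives set with the design, the adjusted exact p of this share ran from 1.81e-05 to 0.521. The share on X, not past the threshold in any setting, turned from below to above that of narrow sites at 200 bp (1.17%), with an overlap of 50% (1.02%) and at the higher score (1.02%). The share within 10 kb of another list turned likewise at 200 bp (11.1%), with other lists kept 500 bp away (5.57%), with an overlap of 50% (11.2%) and with peaks within 500 bp merged (6.56%). Without X, the share on X has no value. No paired analysis was possible because each factor and day had 1 sample. Depth is unknown, so no limit of detection can be given.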
